A study of Papio anubis with 60 samples.

Results

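Narrow active H3K4me3 domains are stretches of chromatin, at least 2 kb and under 5 kb wide, in which the promoter mark H3K4me3 lay together with H3K27ac and apart from the repressive marks H3K27me3 and H3K9me3. They were found in embryonic stem cells (ESC) and induced pluripotent stem cells (iPSC) of the olive baboon, Papio anubis. H3K4me3 peaks of the 2 cell types on chromosomes 1 to 20 were joined where they lay within 1 kb of each other, and domains of the stated width were kept. A domain was chosen by 3 measured features: an H3K27ac peak of the ESC list overlapped it, an H3K27ac peak of the iPSC list overlapped it, and no H3K27me3 or H3K9me3 peak of either cell type did. This selection kept 7746 of 25826 domains of 2 to 5 kb, or 30.0% (95% Wilson interval 29.4 to 30.6%), and of 232590 H3K4me3 domains of any width. The presence of H3K27ac and the absence of the repressive marks in the members therefore follow from the choice and are no findings. "Active" is used here for this combination of marks only, since no transcription was measured in the lists.

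The study profiled 4 histone marks by chromatin immunoprecipitation and sequencing (ChIP-seq), in which DNA bound to a marked histone is pulled down with an antibody and counted along the genome. The ESC were lines B4 and B15 and the iPSC lines 160-2 and M14939#3, all grown on feeder cells, and each library was made from 50000 cells after digestion of the chromatin with micrococcal nuclease. In the labels 60 libraries fall into 10 groups of 6, namely 4 marks and an input in each cell type, and a group holds 3 replicates of each of 2 lines. Peaks come in 8 lists, 1 per mark in ESC and 1 per mark in iPSC, so a list stands for both lines and cell type cannot be told apart from line, culture or library quality. With 1 list per cell type and mark no difference could be set against replicate error and no p-value was computed. Spread is given over the 20 chromosomes, which are not replicates, and Wilson intervals cover counting error only.

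H3K4me3 is a methylation of histone H3 laid down around transcription start sites by SET1 and MLL methyltransferase complexes, and it is found at most promoters that are in use. H3K27ac, an acetylation placed by p300 and CBP on the same lysine that Polycomb complexes methylate, marks promoters and enhancers in use, and a nucleosome tail cannot carry acetyl and methyl groups on that lysine at once. In pluripotent cells many promoters of developmental genes bear H3K4me3 together with H3K27me3, a state called bivalent, whereas H3K9me3 marks heterochromatin and silenced repeats. The domains described here are those of moderate width that bear the first pair of marks and neither of the second.

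At this width, the narrow active state was the largest of the states without a repressive peak. Among the 25826 domains, 15712 (60.8%) bore H3K27me3 or H3K9me3 of at least 1 list. Of these, 8803 had H3K27ac of both lists as well, so the 7746 members made up 46.8% of the 16549 domains acetylated in both cell types. Of the 10114 domains free of repressive peaks, the members made up 76.6%. A further 1485 such domains had H3K27ac of the ESC list only, 200 had it of the iPSC list only, and 683 had no other mark. The smaller number acetylated in iPSC alone stood beside a shorter iPSC list: H3K27ac peaks covered 102.4 Mb of the autosomes in ESC and 54.4 Mb in iPSC.

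The share of domains in the active state changed with width. It was 18.0% (17.8 to 18.2%) of the 125576 domains under 500 bp, reached 35.7% (34.9 to 36.5%) at 1.5 to 2 kb, and was 3.22% (2.16 to 4.79%) of the 714 domains of 10 kb or more. Within the chosen range it fell from 5036 of 15042 domains of 2 to 3 kb (33.5%) to 1911 of 7228 domains of 3 to 4 kb (26.4%) and 799 of 3556 domains of 4 to 5 kb (22.5%). H3K27ac of both lists became more frequent over the same range, from 61.0% of domains of 2 to 2.5 kb to 67.2% of domains of 4.5 to 5 kb. H3K27me3 of either list rose further, from 40.6% to 73.3%, and H3K9me3 from 28.3% to 38.4%. Any overlap with a peak counted, and these shares were not corrected for domain width. The rule excludes the repressive marks, and over this range the share of members fell as those marks became more frequent. The members accordingly lay toward the narrow end, with a median width of 2667 bp (quartiles 2276 and 3302 bp), against 2874 bp for the other 18080 domains of 2 to 5 kb. Their median width was the smaller on 20 of 20 chromosomes.

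**Figure D1:**
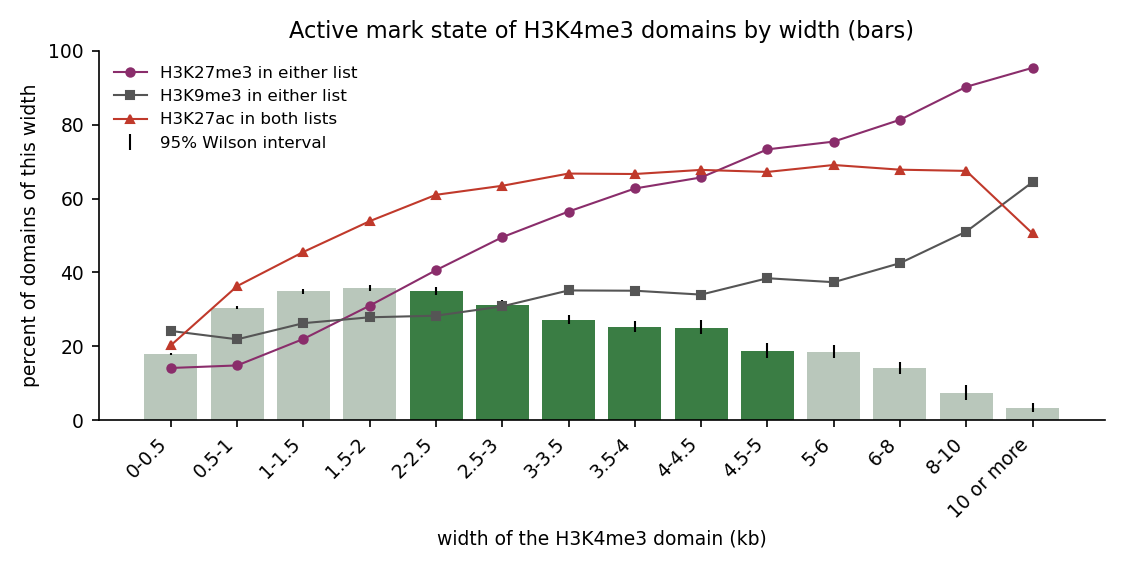
Percent of H3K4me3 domains in the active state (bars, with 95% Wilson intervals) by domain width in kb, dark green for the widths that were chosen, with lines for the percent that bore H3K27ac of both lists, H3K27me3 of either list and H3K9me3 of either list. The bars peak at 35.7% for 1.5 to 2 kb and fall to 3.22% at 10 kb or more, while H3K27me3 rises with width to 95.4%.

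The limits of width cut through a continuum. The 3 widest members each measured 4996 bp, and the 3 domains with the same marks just above the limit measured 5001 to 5003 bp. The 3 narrowest members measured 2000 bp, and those just outside measured 1998 to 1999 bp. Strongest H3K4me3 peaks in ESC were 3.29-, 3.45- and 5.47-fold over background in the 3 widest members and 5.56-, 6.18- and 2.91-fold in the 3 just above the limit. In the 3 narrowest members they were 3.70-, 5.35- and 4.12-fold, and in the 3 just below the limit 3.89-, 2.87- and 4.73-fold. Values inside and outside overlapped at both ends.

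H3K4me3 itself was present in both lists at 7698 of the 7746 members. In 33 members it came from the iPSC list alone and in 15 from the ESC list alone. Firm peaks, those with a −log10 q of at least 5, were found for H3K4me3 in both lists at 7535 members (97.3%), for H3K27ac in both lists at 6130 (79.1%), and for both marks in both lists at 6006 (77.5%). The iPSC H3K27ac peak was most often the weak one: 6320 members (81.6%) had a firm one, against 7332 (94.7%) for H3K27ac of ESC. The acetylation that admitted a member was short in some cases, with under 200 bp in a list at 1272 members (16.4%). Shares of firm or short peaks over all domains of this width are not given, so these counts describe the members only.

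Within the members H3K4me3 was broken into several peaks rather than 1 block. ESC peaks covered 52.0% ± 4.74 (SD over 20 chromosomes) of the members' base pairs and iPSC peaks 57.9% ± 1.89. The median member had 3 peak summits in each list, and 732 members had 1 summit in ESC and 491 in iPSC. All domains of 2 to 5 kb also had a median of 3 in each list. Their mean was 2.94 in ESC and 3.03 in iPSC, against 3.00 and 3.21 in the members. Once the peaks of both lists were pooled, 334 members (4.31%) formed an unbroken stretch, and the widest gap in a member had a median of 587 bp (quartiles 343 and 799 bp). H3K27ac covered 6.36% of the base pairs of these gaps in ESC and 3.14% in iPSC. A gap could not exceed 1 kb, the distance over which peaks were joined. Shares of domains with 1 summit or without a gap are not given for the whole width class. The splitting is therefore not read as particular to the members.

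The other domains of the same width were covered more fully. H3K4me3 filled 61.8% ± 3.41 of them in ESC and 63.1% ± 2.08 in iPSC, and the members' cover was lower on 20 of 20 chromosomes in ESC and on 19 of 20 in iPSC. The contrast was larger against the 1451 domains of 2 to 5 kb that had H3K27ac and H3K27me3 in both lists and no H3K9me3. Cover there was 76.4% ± 2.50 in ESC and 78.1% ± 1.77 in iPSC, above the members on 20 of 20 chromosomes in both. Active domains of 5 kb or more (653 in number) were like the members in this respect, with 53.4% ± 4.63 and 59.0% ± 4.07, and exceeded them on 13 of 20 chromosomes in each list. H3K4me3 covered at least 80% of the domain in both lists at 755 members (9.75%, 9.11 to 10.4%), against 16.6% of all 25826 domains of this width.

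Peak strength was also lower in the members than in the other domains of this width. A fold enrichment is the authors' value of how far a peak rises over background, and it is used here only within a list. The strongest H3K4me3 peak of a member had a median fold of 5.33 ± 0.521 in ESC, with quartiles of 4.26 and 7.10 and a highest value of 20.8. In iPSC the median was 5.59 ± 0.286, with quartiles of 4.50 and 7.19 and a highest value of 17.7. The other domains of 2 to 5 kb had medians of 6.81 in ESC and 6.49 in iPSC, higher than the members on 20 of 20 chromosomes in both lists. Domains with H3K27ac and H3K27me3 stood at 10.7 and 9.0, and active domains of 5 kb or more at 7.05 and 6.96. The 683 domains with no other mark were lower than the members, at 4.87 and 4.97, and so were active domains of 1 to 2 kb, at 4.45 and 4.63.

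Against their whole list, however, most members held a strong peak. The strongest 20% of ESC H3K4me3 peaks began at a fold of 4.98, and 4459 members (57.6%, 56.5 to 58.7%) had such a peak, against 67.1% of all domains of this width. For iPSC, where the limit was 5.13, the number was 4710 (60.8%, 59.7 to 61.9%) against 66.5%. Both counts were thus below the background of the width class. For H3K27ac, 4815 members (62.2%) had a peak in the strongest 20% of the ESC list against 45.4% of all domains, and 3461 (44.7%) in the iPSC list against 32.4%. Nothing is read from those H3K27ac shares, because the members were selected on having H3K27ac.

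**Figure D2:**
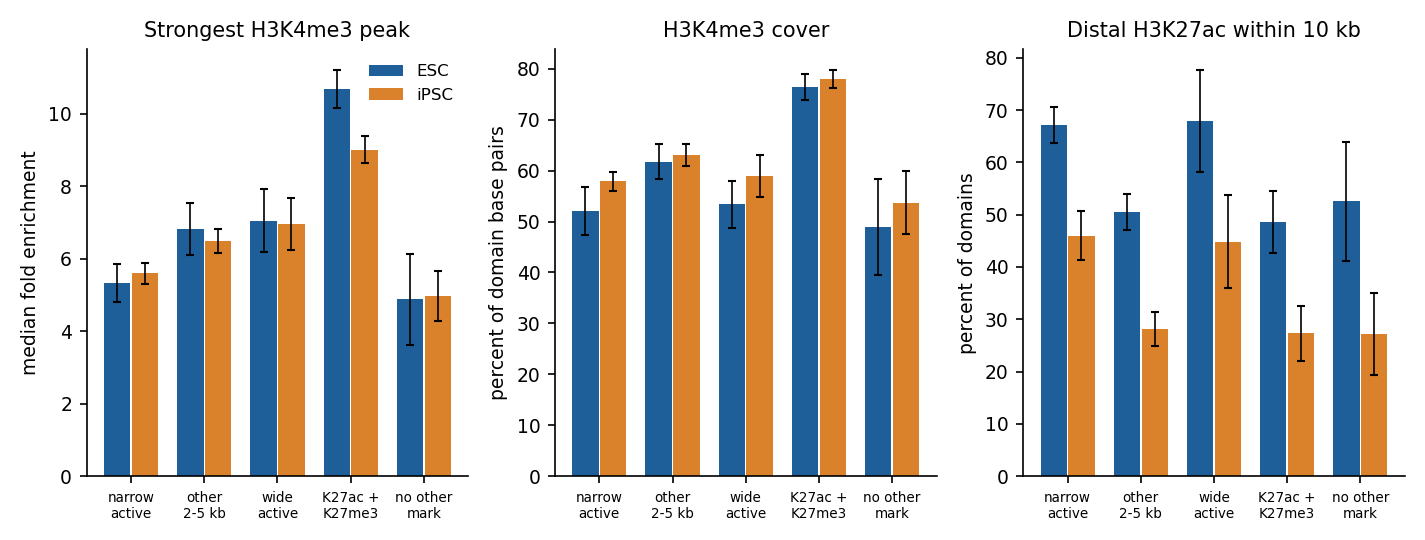
Median fold enrichment of the strongest H3K4me3 peak (left), percent of domain base pairs covered by H3K4me3 (middle) and percent of domains with distal H3K27ac within 10 kb (right) in ESC (blue) and iPSC (orange) for 5 sets of domains; "K27ac + K27me3" are domains with both marks in both lists and no H3K9me3, and error bars are the SD over 20 chromosomes. The members, at the left of each panel, are lower than the other domains of 2 to 5 kb in fold and cover and higher in distal H3K27ac.

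Of the 5 members that ranked highest by H3K4me3 fold over both lists, the first was chr20:26763294-26765521, 2228 bp wide, whose H3K4me3 reached 19.2-fold in ESC and 17.1-fold in iPSC from 1 summit in each. H3K4me3 covered it from end to end in ESC and 85.4% of it in iPSC, whereas H3K27ac covered 811 bp in ESC and 172 bp in iPSC. Its strongest H3K4me3 summits in the 2 lists lay 11 bp apart and its H3K27ac summits 7 bp apart.

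The next 4 lay at chr1:115195496-115199031, chr14:61713591-61717689, chr1:98492393-98494489 and chr20:49675473-49677639. Their H3K4me3 folds were 17.8, 17.5, 16.9 and 18.7 in ESC and 15.8, 15.8, 16.0 and 14.6 in iPSC, in that order. H3K27ac covered 499 to 993 bp of these 4 in ESC and 184 to 751 bp in iPSC, and in each list 3 of the 4 were below the median of all members, 784 and 516 bp. The strongest H3K27ac peaks of all 5 were 5.43- to 6.47-fold in ESC, above the members' upper quartile of 4.93, and 3.74- to 6.32-fold in iPSC. None of the 5 had distal H3K27ac of both lists within 10 kb.

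The 5 members with the most H3K27ac base pairs were wide, at 3846 to 4995 bp, and their H3K4me3 was of moderate fold. Domain width limits how many base pairs a mark can cover, so their width follows in part from the ranking. At chr7:15414259-15419253, 4995 bp wide, H3K27ac covered 4281 bp in ESC and 2989 bp in iPSC, and the H3K4me3 folds were 4.47 and 6.16. The others lay at chr19:668313-673126 (4224 and 3034 bp of H3K27ac), chr10:62709581-62714247 (3483 and 3211 bp), chr15:96302633-96306478 (3414 and 3269 bp) and chr14:67959252-67963678 (3151 and 3315 bp). H3K4me3 folds of the 5 ranged from 4.33 to 6.57 in ESC and from 5.24 to 7.85 in iPSC, in ESC within the members' quartiles, and H3K4me3 covered 2181 to 2721 bp in ESC (members' upper quartile 1955 bp) and 1922 to 3609 bp in iPSC (2089 bp). Of the 5, 4 had distal H3K27ac of both lists within 10 kb. Neither group of 5 was tested, since each was picked by its own values. Over all members, the folds of the 2 marks rose together moderately, with a Spearman correlation of 0.41 in ESC (7711 domains) and 0.42 in iPSC (7718 domains), where the marks share the cell lines of their list.

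Summed over the members, H3K27ac covered less than H3K4me3. H3K27ac peaks took up 31.2% ± 1.72 of the members' base pairs in ESC and 22.0% ± 0.998 in iPSC. The median member held 784 bp of it in ESC (quartiles 494 and 1179 bp) and 516 bp in iPSC (quartiles 303 and 844 bp). Most of it fell on H3K4me3 peaks of the same cell type: 81.7% of the H3K27ac base pairs within members did so in ESC and 88.7% in iPSC. Seen from the other side, H3K27ac covered 48.9% of the members' H3K4me3 base pairs in ESC and 33.7% in iPSC. Outside the H3K4me3 peaks it covered 11.9% and 5.91% of the domain.

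In domains that bore H3K27me3 as well, more of the acetylation lay within the H3K4me3 peaks. In the 1451 domains with H3K27ac and H3K27me3 in both lists, 96.3% (ESC) and 97.3% (iPSC) of the H3K27ac base pairs lay inside H3K4me3 peaks, above the members on 20 of 20 chromosomes in both. Their H3K4me3 also filled more of the domain, which leaves less room outside the peaks. The share of the space outside the peaks that H3K27ac covered was 4.50% in ESC and 2.73% in iPSC, lower than in the members on 19 and 20 of 20 chromosomes. Active domains of 5 kb or more, at 82.4% and 89.6% inside the peaks, were close to the members.

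**Figure D3:**
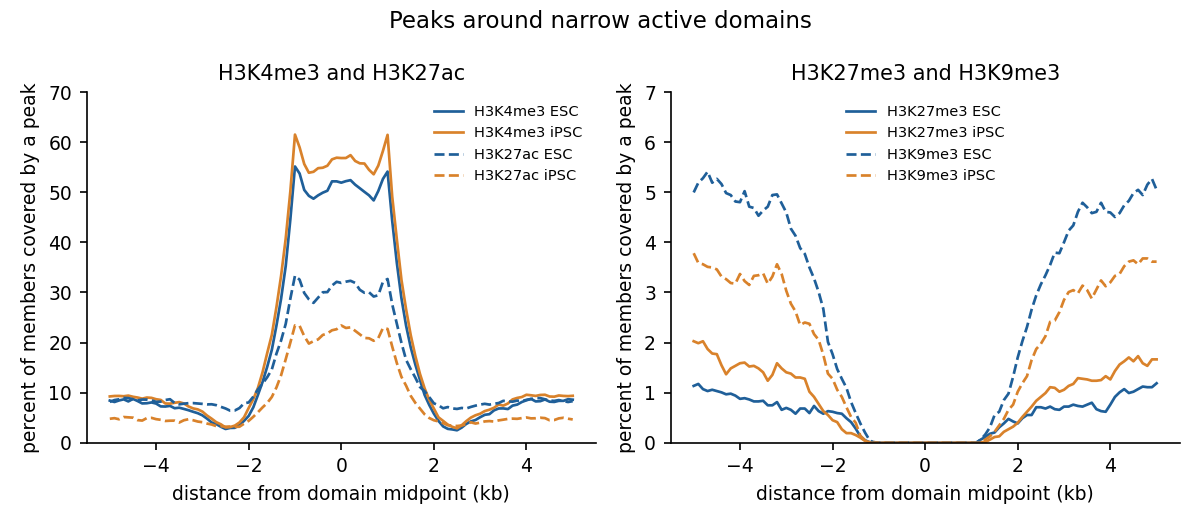
Percent of the members covered by a peak of each mark at distances of up to 5 kb from the domain midpoint, for ESC (blue) and iPSC (orange); H3K4me3 and H3K27ac are on the left, H3K27me3 and H3K9me3 on the right, on different scales. H3K4me3 covers 51.9% (ESC) and 56.8% (iPSC) of midpoints with shoulders near 1 kb, where the narrowest domains end; the absence of the right-hand marks at the centre is set by the rule.

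Between the cell types, H3K4me3 was somewhat more extensive in iPSC and H3K27ac in ESC. H3K4me3 covered 11.6 Mb of the members in ESC and 12.9 Mb in iPSC, a ratio of 0.898 that was lower than the 0.960 of the whole autosomal lists. More base pairs were covered in iPSC at 4997 members and in ESC at 2746. H3K27ac covered 6.94 Mb in ESC and 4.90 Mb in iPSC, and ESC had more at 6196 members, iPSC at 1541, with 9 equal. Such counts per domain are not given for the whole width class, so they describe the members only. Cover of all domains of 2 to 5 kb differed in the same direction. Their H3K4me3 cover was 58.95% (ESC) against 61.61% (iPSC), and their H3K27ac cover 21.06% against 14.07%. The direction is therefore not read as particular to the members. The ESC-to-iPSC ratio of H3K27ac was 1.42 in the members and 1.89 over the autosomes. A member had to hold H3K27ac of both lists, so a smaller ratio than in the lists as a whole follows in part from the rule.

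Of the base pairs that either cell type marked with H3K4me3 in the members, 65.6% ± 2.94 were marked in both. The value was 71.7% ± 2.24 in the other domains of 2 to 5 kb, above the members on 20 of 20 chromosomes, and 83.5% ± 1.34 where H3K27ac and H3K27me3 lay together. For H3K27ac, 53.6% ± 1.32 of the base pairs in either list were in common, a total of 4.13 Mb. These made up 84.3% of the iPSC H3K27ac in members but 59.6% of the ESC H3K27ac. In the shared H3K27ac and H3K27me3 domains the value was 66.1% ± 4.12, again above the members on 20 of 20 chromosomes. In the other domains of 2 to 5 kb it was 49.3% ± 2.85, below the members on 20 of 20, and many of those domains lacked H3K27ac of 1 list. Active domains of 1 to 2 kb stood at 55.9%.

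The strongest summit often fell at the same place in both cell types. For H3K4me3 the median distance between the strongest ESC and iPSC summits was 151 bp over 7698 members, and 48.5% lay within 100 bp. The number within 500 bp was 4879 (63.4%), against 64.5% of all domains of this width, so in this the members were near the background. For H3K27ac the median distance was 52 bp over 7731 members, 55.1% lay within 100 bp and 5237 (67.7%, 66.7 to 68.8%) within 500 bp, against 72% of all domains that had a summit in both lists. Domains with H3K27ac and H3K27me3 in both lists reached 85.8% and active domains of 5 kb or more 57.9%. The distances fell into a sharp group under 100 bp and a long tail that fell off slowly.

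H3K4me3 and H3K27ac of the same cell type shared their strongest summit less often. Their distance had a median of 348 bp in ESC and 428 bp in iPSC, and 40.7% and 36.9% of members lay within 100 bp. Those shares were 39.1% and 35.2% in the other domains of 2 to 5 kb with both marks. The members were only slightly higher, on 13 of 20 chromosomes in ESC and on 16 of 20 in iPSC. Their SD over chromosomes was 3.59 and 2.13 percentage points. In 1278 of 7683 members (16.6%) all 4 strongest summits, of both marks in both lists, lay within 100 bp of each other. In 2295 (29.9%) they lay within 500 bp. The same share over all domains of this width was not computed, so nothing particular to the members is read from it. Fold correlated between the cell types across members, with a Spearman correlation of 0.69 for H3K4me3 (7698 domains) and 0.64 for H3K27ac (7731 domains). Domain width was only weakly related to H3K4me3 fold (Spearman 0.17 in ESC and 0.17 in iPSC).

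**Figure D4:**
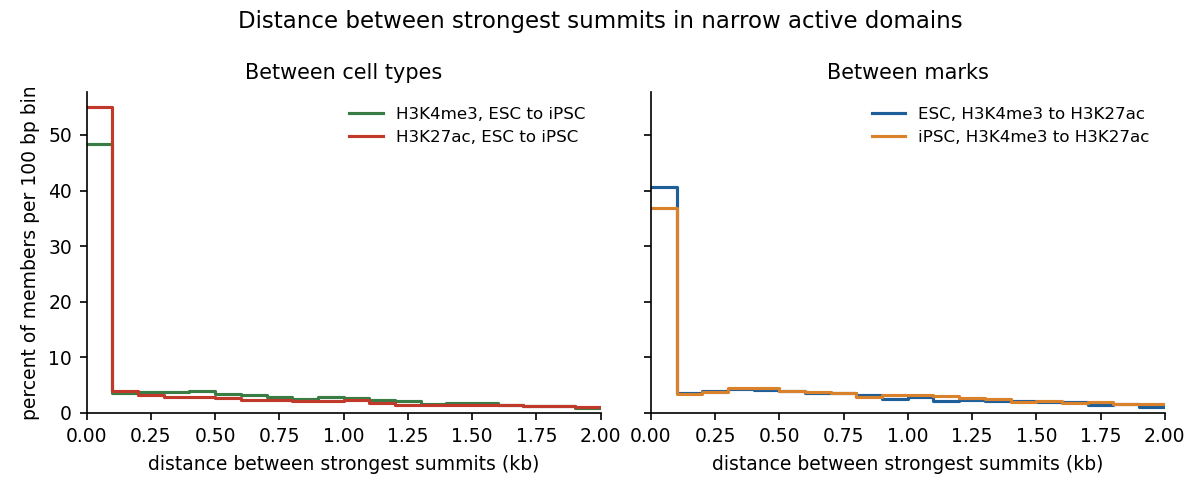
Percent of members by distance in kb, in bins of 100 bp, between strongest summits: ESC against iPSC for H3K4me3 and for H3K27ac (left) and H3K4me3 against H3K27ac within ESC and within iPSC (right). The first bin of each curve holds most, about 48.5% and 55.1% on the left and 40.7% and 36.9% on the right, and each later bin up to 2 kb holds under 5%.

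More H3K27ac lay beyond the edges of the members than around the other domains of 2 to 5 kb. Distal H3K27ac, meaning H3K27ac peaks over 1 kb from any H3K4me3 domain of any width, is a usual sign of enhancers. The selection did not use these distal peaks, but they come from the same H3K27ac lists that admitted the members. Such peaks lay within 10 kb of 67.1% ± 3.48 of members in ESC and of 46.0% ± 4.74 in iPSC. Both lists had one at 3160 members, or 40.8% ± 4.07 (Wilson interval 39.7 to 41.9%), against 28.5% of all domains of 2 to 5 kb. The level depends on the definition: it was 89.1% within 50 kb, against 76.8% of the other domains, and 75.1% against 53.5% where only H3K4me3 domains of at least 2 kb had to be avoided, which was chosen after seeing the data. Within 10 kb, the other 18080 domains stood at 23.2% ± 2.61, lower on 20 of 20 chromosomes. Only 8803 of those domains had H3K27ac of both lists, so the contrast is in part one between domains with and without H3K27ac. Active domains of 5 kb or more (41.4% ± 8.74) and of 1 to 2 kb (41.3%) stood within 1 percentage point of the members, whereas domains with H3K27ac and H3K27me3 had 21.9% ± 4.04 and those with no other mark 22.3% ± 7.71. Domains with no other mark were chosen for lacking H3K27ac in both lists. The level varied less among active sets of different width than between them and the sets with H3K27me3 or with no other mark. The cause of that difference was not tested.

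H3K27ac cover outside the members fell slowly with distance. It was 8.37% of base pairs in ESC and 4.81% in iPSC at 2 to 5 kb from the edge, 7.20% and 4.02% at 10 to 20 kb, and 5.81% and 3.15% at 50 to 100 kb. The autosomes as a whole had 3.95% and 2.10%, so even the farthest band was above that level. Around the other domains of 2 to 5 kb the cover in ESC was 4.77% at 2 to 5 kb and 4.98% at 50 to 100 kb, with no fall. Active domains of 5 kb or more had more H3K27ac around them than the members, 11.65% in ESC and 6.73% in iPSC at 2 to 5 kb. At 50 to 100 kb they had 6.72% and 3.615%, so such surroundings are not particular to the members. Close to the edge all values were lower, and members had 5.75% in ESC and 2.58% in iPSC within 1 kb. No further H3K4me3 peak can lie in that stretch, because it would have been joined to the domain.

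**Figure D5:**
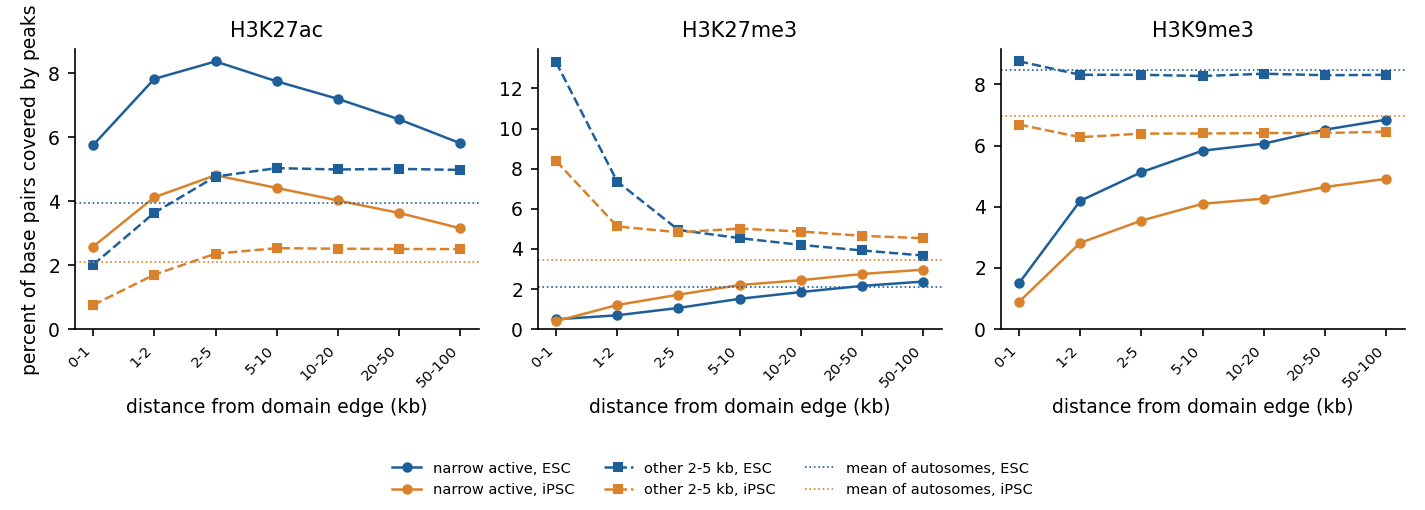
Percent of base pairs covered by H3K27ac, H3K27me3 and H3K9me3 peaks in bands of distance from the domain edge in kb, for the members (solid) and the other domains of 2 to 5 kb (dashed) in ESC (blue) and iPSC (orange), with dotted lines at the mean of the autosomes; each panel has its own scale. Around members H3K27ac peaks at 2 to 5 kb (8.37% in ESC), and H3K27me3 and H3K9me3 rise with distance and stay below the level around the other domains.

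Repressive marks were sparse for some distance around the members. H3K9me3 covered 5.13% of base pairs in ESC at 2 to 5 kb and 6.85% at 50 to 100 kb, below the 8.46% of the autosomes, and the iPSC list had 3.55% and 4.92%, below its autosomal 6.96%. H3K27me3 of ESC rose from 1.06% at 2 to 5 kb to 2.37% at 50 to 100 kb, past the autosomal 2.08%, and that of iPSC from 1.72% to 2.97%, below the autosomal 3.47%. Low H3K9me3 was shared with related domains. At 2 to 5 kb it was 3.63% in ESC and 2.34% in iPSC around active domains of 5 kb or more. Around domains with H3K27ac and H3K27me3 in both lists it was 4.12% and 2.93%. H3K27me3 around the active domains of 5 kb or more was 1.36% in ESC and 1.555% in iPSC at that distance. No repressive peak may touch a member, so the nearest bands are set in part by the rule. The bands beyond 10 kb are the more independent ones. The nearest peak of any repressive list lay at a median of 4.09 kb (quartiles 1.69 and 8.53 kb). It was an ESC H3K9me3 peak for 4127 members (53.3%), an iPSC H3K9me3 peak for 1754, an ESC H3K27me3 peak for 1110 and an iPSC H3K27me3 peak for 755. ESC H3K9me3 was also the list that covered most of the autosomes.

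By mark, the median distance was 5.70 kb to H3K9me3 of ESC, 8.37 kb to H3K9me3 of iPSC, 12.3 kb to H3K27me3 of iPSC and 33.4 kb to H3K27me3 of ESC. That order is the order of the lists by autosomal cover, from 8.46% down to 2.08%. A repressive peak lay within 1 kb of 1120 members (14.5%), and 12 members had none within 50 kb. The 3 farthest were chr1:52659911-52663633, with the nearest such peak 73.6 kb away, chr18:38374200-38376683 at 68.7 kb and chr4:56055846-56058567 at 65.1 kb. Of these the chr18 domain had the strongest H3K4me3, 13.1-fold in ESC and 6.67-fold in iPSC, with 813 and 398 bp of H3K27ac.

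Among the members themselves, the share with distal H3K27ac nearby was lower where H3K4me3 was stronger. In 3557 members (45.9%) the strongest H3K4me3 peak belonged to the strongest 20% of both lists, in 2055 (26.5%) of 1 list, and in 2134 (27.6%) of neither. Distal H3K27ac of both lists within 10 kb was found at 37.0%, 42.4% and 45.6% of these sets. The direction was the same in each list alone, 63.3%, 69.2% and 71.7% in ESC and 42.4%, 48.0% and 50.1% in iPSC. For the 755 members covered to at least 80% by H3K4me3 in both lists the share was 30.2%, against 41.9% of the other 6991. These 755 overlapped the first set: 679 of them (89.9%) were among the 3557 with strong peaks in both lists, of which they made up 19.1%. H3K27ac within the domain covered 31.5%, 31.7% and 30.0% of the base pairs of the 3 sets in ESC and 23.1%, 22.1% and 19.9% in iPSC. Its strength fell from set to set: 77.1%, 56.4% and 42.8% had an H3K27ac peak in the strongest 20% of the ESC list, and 58.8%, 41.3% and 24.4% in that of iPSC. The sets were formed from the same lists after earlier results were known, and this order was not tested.

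The members were scattered along the chromosomes, some alone and some in runs. Another member lay within 50 kb of 3433 of them (44.3% ± 5.69) and within 10 kb of 1217 (15.7%), and the median gap between neighbours was 147 kb. Any H3K4me3 domain of 2 to 5 kb lay within 50 kb of 5857 members (75.6%), against 73.2% of all such domains, a share near the background. Members that followed each other within 50 kb formed 878 pairs, 262 runs of 3 and 105 runs of 4. A further 82 runs of 5 or more held 471 members, while 4313 stood alone. The share with another member within 50 kb depends on the number of domains counted. It was 23.3% of 2710 domains at 3 to under 5 kb and 68.5% of 20437 at 1 to under 5 kb. No share for a set of equal size is given, so no clustering is read from these counts.

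The run with the most members, 9, spanned 160 kb at chr5:134819886-134979842, and all 9 domains of 2 to 5 kb in it were members. H3K27ac covered 18.4% of the run in ESC and 18.0% in iPSC, H3K9me3 3.10% and 2.07%, and H3K27me3 0% and 1.32%. Next came 2 runs of 8 members on chromosome 6, at chr6:119162323-119251613 and chr6:162576882-162661509. In the former all 8 domains of this width were members, and in the latter 8 of 9. H3K27ac covered 14.2% of the former in ESC and 13.9% in iPSC, and 20.4% and 13.5% of the latter. Median folds of the strongest H3K4me3 peak in the 3 runs were 4.49 to 5.41 in ESC, where 1 member of the first run had no H3K4me3 summit, and 5.36 to 5.73 in iPSC, close to the medians of all members, 5.33 and 5.59.

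Across chromosomes the members made up 29.6% ± 3.54 of domains of 2 to 5 kb, from 34.3% on chromosome 2 to 17.9% (15.6 to 20.4%) on chromosome 19, with chromosome 20 next lowest at 23.3%. Chromosome 19 had the most domains of this width per Mb, 18.9, and the highest share of them with H3K27me3, 67.5% against 51.9% ± 4.58 over the 20 chromosomes. Its density of members, 3.39 per Mb, was nevertheless close to the mean of 3.05 ± 0.700. The extremes of density were 1.92 per Mb on chromosome 5 and 4.80 per Mb on chromosome 16.

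The 174 members on chromosome 19 also stood apart from the members of other chromosomes in H3K4me3. Their strongest peaks had a median of 7.54-fold in ESC, while the medians of the other 19 chromosomes ran from 5.07 to 5.71. In iPSC the median was 6.77-fold, against 5.37 to 5.76 elsewhere. H3K4me3 covered 67.7% of their base pairs in ESC, where the next highest chromosome, 16, had 59.4%, and 63.5% in iPSC against 60.9% on chromosome 16. H3K27ac did not follow: it covered 33.3% in ESC and 20.7% in iPSC, within the range of the other chromosomes in both lists. The other domains of 2 to 5 kb varied between chromosomes too. Their highest chromosome median was 8.82-fold in ESC and 7.36-fold in iPSC, against 6.81 and 6.49 over all of them. Values of these domains on chromosome 19 are not given, so the strong H3K4me3 there cannot be called particular to the members. Genes were not assigned, so the content of the members on chromosome 19 was not examined.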

How the data were processed

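The deposited data are 8 peak lists in MACS2 layout, narrow for H3K4me3 and H3K27ac and broad for H3K27me3 and H3K9me3. The submitters' processing notes name MACS2, SAMtools 1.10, deepTools and Picard; the sources used here name no aligner, genome build, calling limit or way of combining libraries and inputs. The authors' fold enrichment of each peak is a ratio over background, and the deposited −log10 q of each peak has a minimum of 1.30 in the narrow and 1.00 in the broad lists. A deposited offset gives each narrow peak's summit. The deposited −log10 p and the display score were not used. Depth per library is unknown because the lists hold no read counts.

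Domains, cover, summits and distances were computed with numpy 2.4.6, pandas 2.3.3 and scipy 1.17.1, and the interval code was tested on simulated data. The strongest peak of a domain is the one of highest fold whose summit lies in it, and medians leave out domains without a summit. The regions named are the 5 members with the lowest sum of ranks by H3K4me3 fold in both lists, the 5 by H3K27ac base pairs, the 3 widest and 3 narrowest with 3 beyond each limit, the 3 runs with most members and the 3 members farthest from a repressive peak. The members, sets and measures were chosen with earlier results of these data known. The gene table at hand is of another chromosome numbering and no genome of the lists was used, so no gene or sequence is given. Alternatives changed the joining distance, the peak limits, the width and the distances, 1 at a time.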

Additional observations from a re-analysis of the deposited data

Results flagged for a closer look

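The X chromosome lies outside the rule, which takes chromosomes 1 to 20. Under the same limits of marks and width, 7 of 879 X domains of 2 to 5 kb would have qualified, or 0.796% (95% Wilson interval 0.386 to 1.64%), against 30.0% on the autosomes. H3K9me3 of ESC overlapped 93.1% of these X domains and 26.8% of the autosomal ones, while H3K9me3 of iPSC overlapped 25.6% and 23.7%. H3K27me3 of ESC overlapped 61.2% and 34.8%, and that of iPSC 27.2% and 41.4%. Cell type and line cannot be told apart here.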

How the results depend on the processing

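With peaks joined within 500 bp the number of members moved from 7746 to 4861, and the results became 56.4% of H3K27ac base pairs in common, 70.6% of H3K27ac summits within 500 bp, 37.4% with distal H3K27ac of both lists, 36.5% with another member within 50 kb and 4.24 kb to the nearest repressive peak. Joining within 2 kb gave 10884 members (within 1.5 times) and, in the same order, 50.9%, 66.6%, 43.1%, 49.5% and 4.23 kb. With H3K4me3 and H3K27ac peaks of −log10 q of at least 5 only, 5079 members remained by count, with 52.7%, 71.2%, 27.7% and 35.8%; here the others had distal H3K27ac at 13.9%. With repressive peaks of −log10 q of at least 2 only, there were 10083 members and the values were 54.5%, 69.1%, 38.5%, 49.1% and 5.55 kb. Excluding domains with a repressive peak within 1 kb left 6626 members. It gave 53.9%, 42.0%, 41.2% and 5.04 kb for common base pairs, distal H3K27ac, neighbours and distance. Asking for 200 bp of H3K27ac in each list left 6474 members and gave 56.2%, 42.2% and 40.7% for the first 3 of these. A width of 3 to under 5 kb left 2710 members, with 54.3%, 63.2%, 23.3% and 4.30 kb for common base pairs, summits, neighbours and distance, and 1 to under 5 kb gave 20437 with 54.8%, 74.4%, 68.5% and 3.94 kb. Summits counted within 200 bp gave 58.9%, neighbours within 10 kb 15.7%, and distal H3K27ac within 50 kb 89.1%. Taking distal H3K27ac from H3K4me3 domains of at least 2 kb only, an alternative chosen after seeing the data, gave 75.1% against 53.5% in the other domains. In every setting run, distal H3K27ac was more frequent at members than at the other domains, by 1.16 to 2.00 times. The members were chosen for H3K27ac of the same lists, and many of the other domains lacked it in a list. The cause of the remaining shifts was not tested. Of the 7746 members, 4020 (51.9%) overlapped a member when peaks were joined within 500 bp and 4698 (60.7%) one made from firm peaks. No paired analysis was possible because each list stands for all libraries of a cell type and mark, and for the same reason no library could be left out. The unknown depth of each list limits every statement on what is absent from it.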
